A study of Mus musculus with 10 samples.

Results

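The genes described here encode the machinery that copies DNA in S phase, together with the enzymes that supply its nucleotides and the regulators that start it. They were 41 named genes, chosen with earlier results of these data known and taken by symbol from the 19938 genes that the array measured. For each gene the probe set (the group of probes that reports a gene) was assigned by the platform annotation to that gene alone, and a gene with several was read from its brightest one, by the mean of the 10 arrays. All 41 were measured. Their levels were compared in dorsal root ganglia (DRGs), the clusters of sensory neurons and glia beside the spinal cord, at E13.5, between 5 pools of Lkb1 KO and 5 of WT embryos. In the Lkb1 KO, floxed Lkb1 (gene symbol Stk11, a kinase of energy homeostasis) was deleted by a Wnt1-Cre transgene, which acts in the neural crest, the source of DRG neurons and glia, and also in the midbrain and dorsal neural tube. Cells of a ganglion that do not come from the neural crest, such as those of vessels, keep the gene. WT samples came from littermates on a mixed genetic background, and the labels do not say which alleles or whether Cre was present in them. Each sample was a pool of ganglia from 2 embryos on 1 array, so n counts pools. The labels call the pools biological replicates. Levels are the authors' log2 values after RMA, a method that corrects background, aligns the arrays and summarizes each probe set. A difference of 1 on this scale is a 2-fold change, and levels of different genes cannot be compared with each other.

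A cell copies its genome once per division. In G1 phase the origin recognition complex with Cdc6 and Cdt1 loads the MCM2-7 ring onto DNA. Cyclin E with its kinase partner and the E2F transcription factors then start S phase, Cdc45 and the GINS complex join the ring to form the active helicase, and polymerases copy both strands. Neurons have left the cell cycle, so in a developing ganglion these genes mark the progenitors, glia and mesenchymal cells that still divide. Many of them are textbook targets of E2F factors.

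The promoters of these genes were searched for E2F site letters because E2F factors are known regulators of many of them. RefSeq promoter sequences (GRCm38.p6; 250 bases before to 50 bases after a transcription start) were found for 33 of the 41 genes, with 38 promoters in all. The letters searched were TTTCGCGC and TTTGGCGC on both strands. They were found in 10 of the 38 promoters (26.3%), against 267 of all 32851 promoters (0.813%). The 10 promoters belong to 10 genes, 4 of them of the MCM2-7 ring. In the stretches printed here, read 5′ to 3′ on the strand of the gene, capitals mark the E2F letters on either strand. In Mcm5 and in the first of the pair of marks in Mcm6, a match on each strand overlaps to give 1 longer run.

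Mcm3 (chr1:20820263-20820285, minus strand): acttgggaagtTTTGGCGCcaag

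Mcm5 (chr8:75109336-75109387, plus strand): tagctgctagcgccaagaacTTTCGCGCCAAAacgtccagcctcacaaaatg

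Mcm6 (chr1:128359725-128359835, minus strand): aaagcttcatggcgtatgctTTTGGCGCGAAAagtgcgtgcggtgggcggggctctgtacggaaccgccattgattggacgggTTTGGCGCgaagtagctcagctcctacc

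Mcm7 (chr5:138171849-138171878, minus strand): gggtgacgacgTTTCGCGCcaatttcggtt

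Pola1 (chrX:93632266-93632313, minus strand): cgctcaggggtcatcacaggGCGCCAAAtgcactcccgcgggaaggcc

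Cdt1 (chr8:122568036-122568064, plus strand): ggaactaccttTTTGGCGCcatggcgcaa

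Orc1 (chr4:108579407-108579453, plus strand): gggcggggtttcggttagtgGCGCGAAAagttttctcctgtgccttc

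Rfc3 (chr5:151651209-151651238, minus strand): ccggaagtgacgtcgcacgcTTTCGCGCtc

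Lig1 (chr7:13278841-13278870, plus strand): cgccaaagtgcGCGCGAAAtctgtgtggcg

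Uhrf1 (chr17:56304108-56304155, plus strand): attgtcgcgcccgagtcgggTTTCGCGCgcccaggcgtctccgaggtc

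The stretches of Mcm3, Mcm7, Cdt1 and Lig1 lie within 50 bases after the start, the others before it. A match of letters is a description and not a tested site. Other spellings of the site were not searched, so genes without these letters may still hold an E2F site. The 10 genes with E2F letters had a median log2 fold change (also called the difference, Lkb1 KO minus WT) of 0.20, with values between 0.07 and 0.31, and the 23 without had 0.17, between 0.03 and 0.37, so the ranges overlapped. The CCAAT box (letters CCAAT, both strands) was in 22 of the 38 promoters (57.9%) and in 37.4% of all promoters. The CHR element of genes expressed at mitosis (letters TTTGAA, both strands) was in 4 of the 38 (10.5%) and in 17.9% of all promoters. Of 17 genes of G2 phase and mitosis with a promoter in the table, 12 had the CHR letters and 1 had E2F letters. Counted by gene, these shares were 20.2% and 0.929% of all genes with a promoter there.

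The replication genes were higher in Lkb1 KO DRGs by small amounts. All 41 had a positive log2 fold change, against 49.1% of all genes, with a median of 0.17 (1.13-fold) and a range from 0.03 for Orc6 and Chaf1a to 0.37 for Cdc6. The median over all genes tested was 0.00, and their 5th and 95th percentiles were -0.15 and 0.16. At an adjusted p under 0.05 from limma, with Benjamini-Hochberg adjustment over all 19938 genes, 12 of the 41 were higher and none was lower, against 2.49% and 1.38% of all genes. The 12 were Cdc6, Mcm3, Mcm4, Mcm6, Mcm10, Cdc45, Pola1, Pole, Rrm1, Rrm2, Tyms and Chaf1b. At an unadjusted p under 0.05, 28 were higher (7.51% of all genes) and none lower. With the replicate number as a block, 19 of the 41 were called higher (3.59% of all genes). At the false discovery rate of 0.01 that the methods name, limma called none of the 41 (1.16% of all genes were higher). An analysis of variance fitted to each gene alone, which does not share the spread between genes, called Cdc45 alone at 0.05 (1.30% of all genes).

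The number of calls depended on single pools, among the 41 genes and over the array. Without WT 2 the called genes were Cdc45 and Pole (1.79% of all genes were called higher), as they were without Lkb1 KO 2 (1.8%). Without Lkb1 KO 5 they were Cdc45, Pole and Cdc6 (2.12%), and without WT 1 they were Cdc45, Mcm6, Mcm10 and Pole (1.92%). Without WT 3 the 5 called genes were Cdc45, Mcm4, Pola1, Pole and Tyms (1.73%), and without Lkb1 KO 3 they were Cdc45, Mcm3, Mcm6, Pole and Rrm2 (2.04%). Without WT 4 there were 7, which were Cdc45, Cdc6, Chaf1b, Mcm3, Mcm4, Pole and Rrm2 (1.67%). Without Lkb1 KO 4 there were also 7, namely Ccne1, Ccne2, Cdc45, Mcm10, Mcm3, Pole and Rrm2 (2.05%). Without Lkb1 KO 1 there were 11 (2.44%) and without WT 5 there were 13 (2.25%). Cdc45, which joins the MCM ring, and Pole, the catalytic subunit of DNA polymerase epsilon, were thus called whichever pool was left out.

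The mean of the 41 genes, each centred on its WT mean, separated the genotypes. It was -0.08, 0.00, 0.04, -0.01 and 0.06 in WT pools 1 to 5 and 0.10, 0.24, 0.15, 0.14 and 0.25 in Lkb1 KO pools 1 to 5. Lkb1 KO 2 and 5 were the highest, and the gap between the lowest Lkb1 KO pool and the highest WT pool was smaller than the range within either group. WT 1 was the lowest WT pool for 27 of the 41 genes. Lkb1 KO 2 or 5 was the highest of all 10 pools for 17 and 18 genes, and no WT pool was the highest for any. In 8 genes all Lkb1 KO pools lay above all WT pools (3.09% of all genes) and in none did all lie below (2.24% of all genes). The 8 were Mcm3, Mcm10, Cdc45, Pole, Rfc3, Rrm1, Rrm2 and Tyms. In 24 genes the Lkb1 KO pool was above the WT pool of the same number in all 5 pairs (8.54% of all genes).

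**Figure D1:**
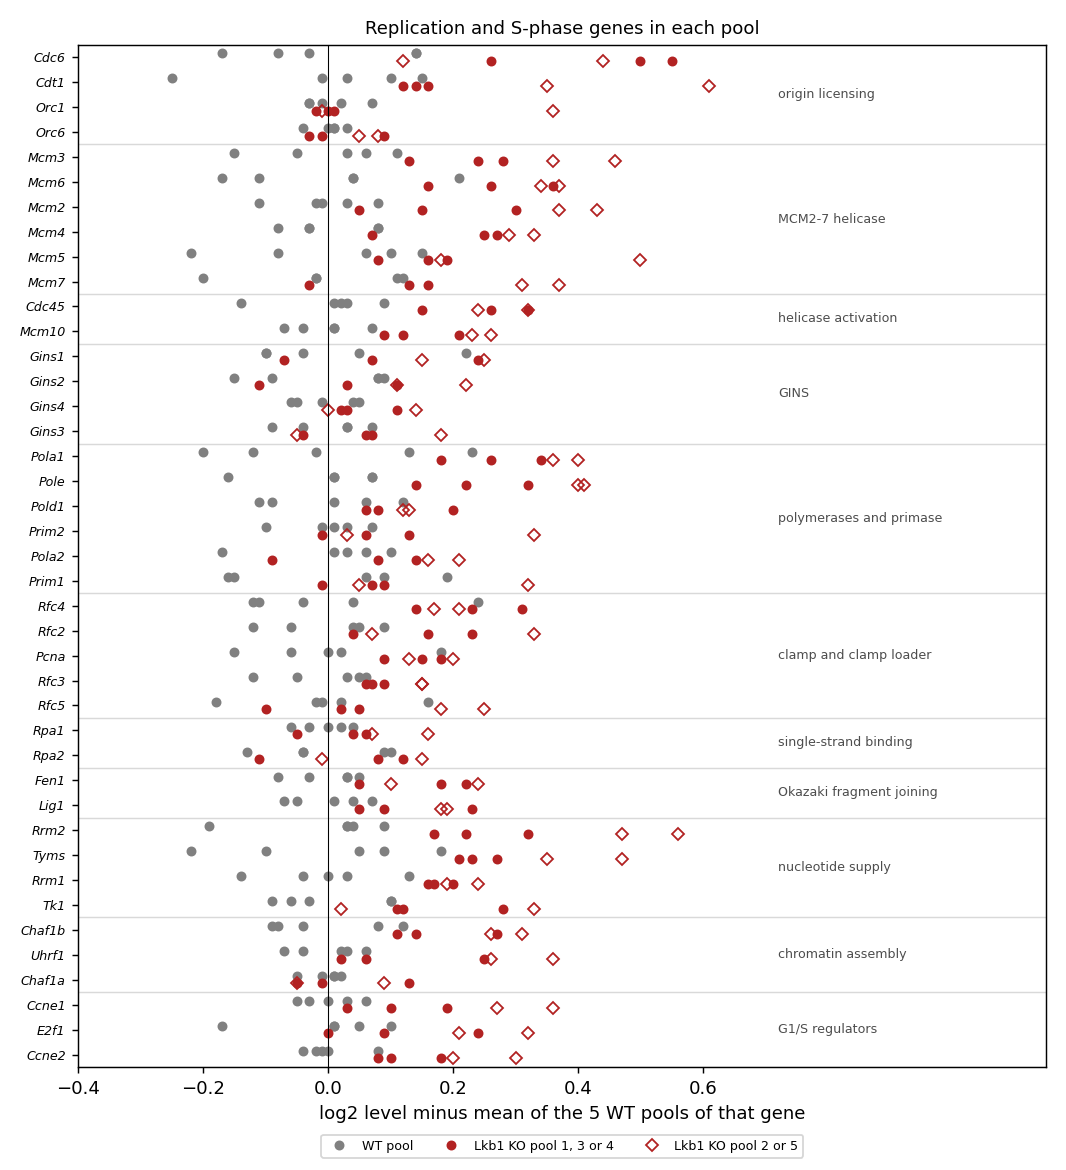
Level of each of the 41 genes in each pool (x axis, log2 level minus the mean of the 5 WT pools of that gene; y axis, genes by role). Grey circles are WT pools, filled red circles Lkb1 KO pools 1, 3 and 4, and open red diamonds Lkb1 KO pools 2 and 5; the diamonds are often farthest to the right, and all red marks lie right of all grey ones in 8 genes.

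Lkb1 KO pools 2 and 5, the highest for most of the genes, were also those without signal of Y-linked genes. The mean log2 level of 3 Y-linked genes was 5.02 and 5.21 in these pools and between 8.80 and 9.81 in the other 8, while Xist, which is made from the inactive X, was at 12.36 and 12.37 in them. The other pools held either both signals (WT 2 and 4, Lkb1 KO 1 and 4) or Y-linked signal with a low Xist level (WT 1, 3 and 5, Lkb1 KO 3). Among the pools with both signals, the mean of the 41 genes was -0.01 to 0.00 in WT and 0.10 to 0.14 in Lkb1 KO. Among those with Y-linked signal and low Xist it was -0.08 to 0.06 in 3 WT pools and 0.15 in the single Lkb1 KO pool. The median difference in means over the 41 genes was 0.1 in the first of these comparisons, of 2 WT and 2 Lkb1 KO pools. It was 0.13 in the second, which holds 1 Lkb1 KO pool. Genes measured in the same few pools are not independent of each other. Without Lkb1 KO 2 and 5, limma called 1 of the 41 genes, Cdc6 (1.44% of all genes were called higher), and the median log2 fold change was 0.12. With the Y-linked mean as a covariate it also called only Cdc6 (1.43% of all genes), with a median of 0.11. No WT pool lacked Y-linked signal, so sex and genotype cannot be told apart in Lkb1 KO 2 and 5. With both the covariate and the replicate block, Pole alone was called (1.46% of all genes).

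**Figure D2:**
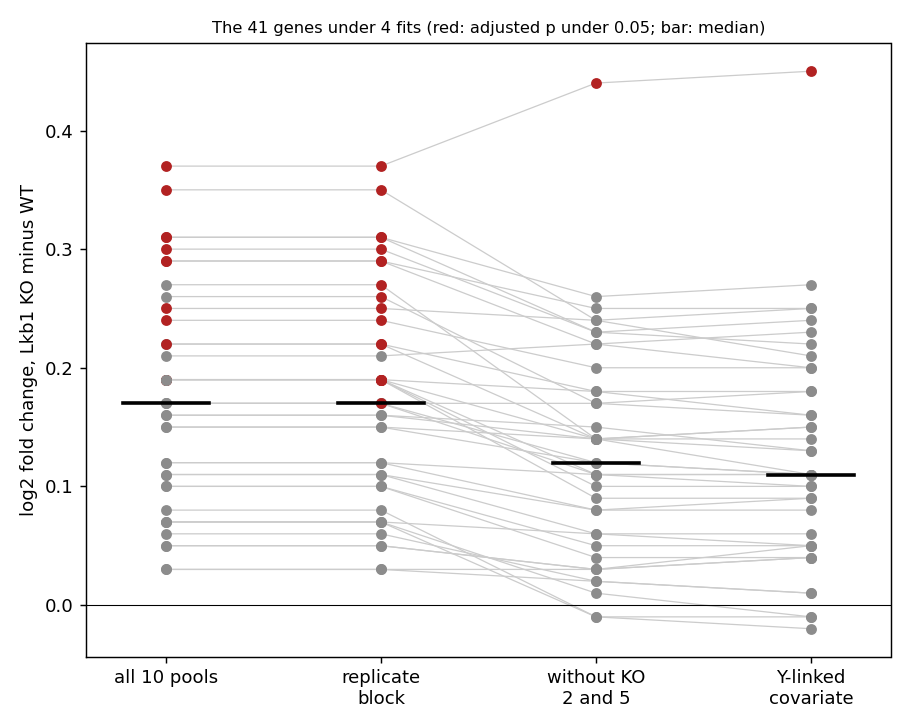
Log2 fold change of each of the 41 genes (y axis, Lkb1 KO minus WT) with all 10 pools, with the replicate number as a block, without Lkb1 KO pools 2 and 5, and with mean Y-linked signal as covariate. Red marks an adjusted p under 0.05 from limma, grey lines join a gene, and black bars are medians, which go from 0.17 in the first pair of fits to 0.12 and 0.11; 12, 19, 1 and 1 genes are red.

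Markers of other cell types of the ganglion moved with the genotype as well. Stk11 itself was at 8.61, 8.61, 8.51, 8.70 and 9.08 in WT pools 1 to 5 and at 7.68, 7.82, 7.69, 7.77 and 7.94 in the Lkb1 KO pools, lower in each of them than in any WT pool (difference -0.92 ± 0.09 SE, adjusted p = 1.15e-04). It is not known here whether the probe set covers the deleted sequence, so this is a limited check of the labels. Of 13 measured fibroblast and mesenchyme markers, 10 were higher and none lower in Lkb1 KO, against 2.49% and 1.38% of all genes. The mean level of the list was 8.69 to 8.79 in WT and 9.0 to 9.08 in Lkb1 KO. Among the 10 were the matrix genes Postn, at a log2 fold change of 0.36, and Col1a1, at 0.35. Of 16 sensory neuron markers 4 were lower and none higher, with list means of 10.09 to 10.25 in WT and 9.95 to 10.06 in Lkb1 KO. These were Isl1, Isl2, Prrxl1 and Elavl4. The number lower was 8 with the replicate block and 3 with the Y-linked covariate, namely Elavl4, Isl1 and Pou4f1. It was 1, Isl1, without Lkb1 KO 2 and 5. The fibroblast count of 10 was 11, 7 and 7 in these fits, where the block added Pdgfra and Pdgfrb and dropped Col5a1. Of 10 Schwann and satellite glia markers, the hedgehog ligand gene Dhh was higher and the cadherin gene Cdh19 lower, and the list means were 9.60 to 9.64 and 9.58 to 9.65. Ednrb was called lower too with the replicate block. Of 9 endothelial markers Cldn5 was higher, and the list means were 8.32 to 8.40 in WT and 8.36 to 8.62 in Lkb1 KO. Of 12 spinal cord progenitor markers Pax6 was higher, at a low level with a mean of 5.01 over the 10 arrays. The means of that list were 5.23 to 5.31 in WT and 5.26 to 5.40 in Lkb1 KO. None of 9 pericyte, 9 macrophage and 6 erythroid markers passed the test, where limma gave 2, 0 and 0 genes at an unadjusted p under 0.05. With the replicate block the pericyte markers Kcnj8 and Myl9 and the endothelial marker Kdr were called higher as well. Pax6 was not called with the covariate or without Lkb1 KO 2 and 5. The list means were 6.84 to 6.93 and 6.92 to 7.15 for pericytes, 6.36 to 6.54 and 6.47 to 6.55 for macrophages and 7.72 to 8.26 and 7.75 to 8.27 for erythroid cells. Log2 levels of defining markers in WT were 11.77 for Isl1, 11.12 for Tubb3 and 7.76 for Tlx3 (sensory neurons), and 9.26 for Sox10, 7.32 for Foxd3 and 6.05 for S100b (glia). Without detection calls, these levels do not show which of them were above background. The part of cell numbers in the change of the replication genes was not tested. In such bulk samples, a different number of dividing cells and a different level of RNA per cell cannot be told apart.

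In origin licensing, Cdc6, the ATPase that with the origin recognition complex loads the MCM ring, rose most of all 41 genes. Cdc6 was at a low level, with a mean of 5.4 over the 10 arrays. Its log2 level was 5.18, 5.04, 5.13, 5.35 and 5.35 in WT pools 1 to 5 and 5.47, 5.65, 5.71, 5.76 and 5.33 in Lkb1 KO pools 1 to 5. Lkb1 KO 5 lay among the WT pools and the other Lkb1 KO pools above all of them (difference 0.37 ± 0.09 SE, adjusted p = 0.0305). Its partner Cdt1, whose inhibition by geminin confines loading to G1 phase, was between 6.18 and 6.58 in WT and between 6.55 and 7.04 in Lkb1 KO (difference 0.27 ± 0.10 SE, adjusted p = 0.179). It was called with the replicate block (adjusted p = 0.0210). The origin recognition complex genes did not pass the test. Orc6 was at 8.92, 8.94, 8.91, 8.87 and 8.92 in WT and 9.0, 8.96, 8.90, 8.88 and 8.99 in Lkb1 KO, and the groups overlapped (difference 0.03 ± 0.04 SE, adjusted p = 0.746). Orc1 was at a low level, between 4.94 and 5.04 in WT, and between 4.95 and 4.98 in the Lkb1 KO pools apart from Lkb1 KO 5 at 5.33. Its change (difference 0.07 ± 0.07 SE, adjusted p = 0.738) became -0.01 without Lkb1 KO 5 and was 0.09 without Lkb1 KO 2. The median of the 4 licensing genes was 0.17.

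The 6 genes of the MCM2-7 ring, the motor that unwinds DNA, had log2 fold changes between 0.19 and 0.29, and each was higher in Lkb1 KO in all 5 same-numbered pairs. Their median of 0.25 (1.19-fold) was, with that of the nucleotide enzymes, the highest of the 11 role groups. Mcm3, Mcm4 and Mcm6 rose. Mcm3 was at 6.63, 6.73, 6.81, 6.84 and 6.89 in WT and 7.02, 7.24, 6.91, 7.06 and 7.14 in Lkb1 KO. All Lkb1 KO pools lay above all WT pools, the nearest being Lkb1 KO 3 and WT 5 (difference 0.29 ± 0.06 SE, adjusted p = 0.0241). An exact permutation test of this gene, two-sided over 252 assignments of the pools, gave the lowest p it can reach, 0.00794. Any gene with all Lkb1 KO pools above all WT pools gets this p, so it adds nothing to that separation. The same permutation test gave 0.0159 for Mcm6 and 0.0238 for Mcm4. Mcm6 was at 7.98, 7.6, 7.66, 7.81 and 7.81 in WT and 8.13, 8.11, 7.93, 8.03 and 8.14 in Lkb1 KO, with WT 1 above Lkb1 KO 3 and the other pools separated (difference 0.29 ± 0.07 SE, adjusted p = 0.0317). Mcm4 was at 8.35, 8.40, 8.51, 8.51 and 8.40 in WT and 8.50, 8.72, 8.68, 8.70 and 8.76 in Lkb1 KO. Lkb1 KO 1 lay just below WT 3 and WT 4, and the other Lkb1 KO pools were above every WT pool (difference 0.24 ± 0.05 SE, adjusted p = 0.0229).

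The remaining ring genes did not pass the test, although 0 was outside the 95% confidence interval of each. Mcm2 was at 8.44, 8.54, 8.63, 8.58 and 8.53 in WT and 8.60, 8.92, 8.70, 8.85 and 8.98 in Lkb1 KO, where only Lkb1 KO 1 and WT 3 overlapped. It was just outside the threshold (difference 0.26 ± 0.07 SE, adjusted p = 0.0538), with an adjusted p of 0.0226 with the replicate block. Mcm5 was at 7.88, 8.16, 8.2, 8.02 and 8.25 in WT and 8.26, 8.28, 8.29, 8.18 and 8.60 in Lkb1 KO, where Lkb1 KO 5 stood well above the other pools (difference 0.22 ± 0.08 SE, adjusted p = 0.218). Mcm7 was at 8.09, 8.27, 8.40, 8.27 and 8.41 in WT and 8.26, 8.60, 8.42, 8.45 and 8.66 in Lkb1 KO, with Lkb1 KO 1 below 4 of the WT pools (difference 0.19 ± 0.08 SE, adjusted p = 0.249). With the replicate block, Mcm5 and Mcm7 were called too, at adjusted p-values of 0.0349 and 0.0411, so all 6 ring genes passed in that fit. The mean of the ring was -0.09 to 0.06 in WT pools and 0.14, 0.32, 0.17, 0.23 and 0.39 in Lkb1 KO pools 1 to 5. Lkb1 KO 1 was thus nearest to WT and Lkb1 KO 5 farthest from it.

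Cdc45 and the GINS complex are the partners that turn the MCM ring into a running helicase, and Mcm10 acts when it starts. Cdc45 had the smallest p of the 41 genes. Its level was 6.81, 6.65, 6.88, 6.80 and 6.82 in WT and 6.94, 7.11, 7.11, 7.05 and 7.03 in Lkb1 KO, and the groups did not overlap (difference 0.25 ± 0.05 SE, adjusted p = 0.0126). Mcm10 was at 6.43, 6.37, 6.32, 6.29 and 6.37 in WT and 6.48, 6.62, 6.57, 6.45 and 6.59 in Lkb1 KO, also without overlap (difference 0.19 ± 0.04 SE, adjusted p = 0.0333). No GINS gene was called, and their differences were between 0.05 and 0.12. Gins1 was at 6.82, 6.76, 7.08, 6.91 and 6.76 in WT and 6.79, 7.11, 7.10, 6.93 and 7.01 in Lkb1 KO, and the ranges overlapped over most of their length (difference 0.12 ± 0.07 SE, adjusted p = 0.483). Gins3 was at 7.21, 7.26, 7.33, 7.33 and 7.37 in WT and 7.26, 7.25, 7.36, 7.37 and 7.48 in Lkb1 KO, likewise overlapping (difference 0.05 ± 0.05 SE, adjusted p = 0.754). For Gins2 and Gins4 the log2 fold change was 0.07 and 0.07, and Gins2 was at -0.01 with the Y-linked covariate. The upper 95% confidence limits of Gins1, Gins2, Gins3 and Gins4 were 0.28, 0.21, 0.15 and 0.15. The difference between Cdc45 and the GINS genes was not tested.

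DNA polymerase alpha with primase lays the primers, and polymerases epsilon and delta extend the leading and the lagging strand. Of the 6 genes, the catalytic subunits Pole and Pola1 rose. Pole, of polymerase epsilon, was at 7.88, 8.11, 8.11, 8.05 and 8.05 in WT and 8.18, 8.45, 8.36, 8.26 and 8.44 in Lkb1 KO, with no overlap and WT 1 well below the other WT pools (difference 0.30 ± 0.06 SE, adjusted p = 0.0171). Pola1, of polymerase alpha and encoded on the X chromosome, was at 7.18, 7.26, 7.61, 7.36 and 7.51 in WT and 7.56, 7.74, 7.72, 7.64 and 7.78 in Lkb1 KO. Only Lkb1 KO 1 and WT 3 crossed (difference 0.31 ± 0.08 SE, adjusted p = 0.0421). Pold1, of polymerase delta and at a low level, was between 5.55 and 5.78 in WT and between 5.72 and 5.86 in Lkb1 KO (difference 0.12 ± 0.05 SE, adjusted p = 0.272). The primase gene Prim1 was at 7.21, 7.43, 7.46, 7.22 and 7.56 in WT and 7.46, 7.69, 7.44, 7.36 and 7.42 in Lkb1 KO. Lkb1 KO 2 was the highest and the other Lkb1 KO pools lay within the WT range (difference 0.10 ± 0.08 SE, adjusted p = 0.627). Prim2 and Pola2, the partner subunits, had log2 fold changes of 0.11 and 0.10 and did not pass the test. The median of the 6 genes was 0.11.

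Pcna is the sliding clamp that holds polymerases on DNA, the Rfc genes encode the loader that opens it, and replication protein A coats single-stranded DNA. None of these 7 genes passed the test, and 4 of the 5 of clamp and loader had an unadjusted p under 0.05 from limma. Pcna was at 10.52, 10.60, 10.58, 10.43 and 10.76 in WT and 10.67, 10.78, 10.76, 10.73 and 10.71 in Lkb1 KO. WT 5 lay within the Lkb1 KO range and the other WT pools below it (difference 0.15 ± 0.05 SE, adjusted p = 0.193), and without WT 5 Pcna was called (adjusted p = 0.0367). A second Pcna probe set gave a log2 fold change of 0.15 as well. Rfc4 was at 8.78, 8.86, 8.94, 8.79 and 9.14 in WT and 9.13, 9.11, 9.04, 9.21 and 9.07 in Lkb1 KO, again with WT 5 as the only overlapping WT pool (difference 0.21 ± 0.06 SE, adjusted p = 0.115; adjusted p = 0.0112 without WT 5). Rfc3 had all Lkb1 KO pools above all WT pools by a narrow margin, 7.50 to 7.59 against 7.32 to 7.50 (difference 0.11 ± 0.04 SE, adjusted p = 0.232). Rfc5 was at 8.14, 8.34, 8.48, 8.30 and 8.31 in WT and 8.22, 8.50, 8.34, 8.37 and 8.57 in Lkb1 KO, with overlap of both ranges (difference 0.08 ± 0.07 SE, adjusted p = 0.674), and its change was -0.02 with the Y-linked covariate. Rfc2 had a log2 fold change of 0.16. The replication protein A genes had the smallest median of all role groups, 0.05. Rpa1 was at 7.83, 7.93, 7.91, 7.89 and 7.86 in WT and 7.95, 8.05, 7.93, 7.84 and 7.96 in Lkb1 KO (difference 0.06 ± 0.04 SE, adjusted p = 0.58). Rpa2 was at 7.22, 7.22, 7.35, 7.13 and 7.36 in WT and 7.34, 7.41, 7.38, 7.15 and 7.25 in Lkb1 KO (difference 0.05 ± 0.06 SE, adjusted p = 0.793), and in both genes Lkb1 KO 4 was the lowest Lkb1 KO pool.

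Fen1, the flap nuclease, and Lig1, the DNA ligase, finish the lagging strand. Fen1 was at 5.78, 5.89, 5.89, 5.91 and 5.83 in WT and 6.08, 5.96, 5.91, 6.04 and 6.10 in Lkb1 KO, where Lkb1 KO 3 and WT 4 met at 5.91. It did not pass the test (difference 0.16 ± 0.05 SE, adjusted p = 0.0862). Lig1 was at 7.52, 7.63, 7.66, 7.6 and 7.54 in WT and 7.64, 7.77, 7.68, 7.82 and 7.78 in Lkb1 KO, with only Lkb1 KO 1 and WT 3 crossing (difference 0.15 ± 0.04 SE, adjusted p = 0.108). Neither passed the threshold in any of the 10 fits that left out 1 pool.

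Ribonucleotide reductase, of the subunits Rrm1 and Rrm2, makes the deoxyribonucleotides, Tyms (thymidylate synthase) makes the thymidine nucleotide from deoxyuridine monophosphate, and Tk1 (thymidine kinase) salvages thymidine. Of these 4 genes 3 rose, and in each of the 3 all Lkb1 KO pools lay above all WT pools. Rrm2, the subunit whose amount changes over the cell cycle, was at 7.0, 7.22, 7.22, 7.28 and 7.23 in WT and 7.36, 7.75, 7.41, 7.51 and 7.66 in Lkb1 KO. Lkb1 KO 2 and 5 were highest and WT 1 stood well below the other WT pools (difference 0.35 ± 0.08 SE, adjusted p = 0.0243). Rrm1 was at 9.58, 9.75, 9.72, 9.68 and 9.85 in WT and between 9.88 and 9.96 in all Lkb1 KO pools (difference 0.19 ± 0.05 SE, adjusted p = 0.044). Tyms was at 8.37, 8.25, 8.65, 8.52 and 8.56 in WT and 8.68, 8.94, 8.70, 8.74 and 8.82 in Lkb1 KO (difference 0.31 ± 0.07 SE, adjusted p = 0.0401). Tk1 was at 6.30, 6.33, 6.36, 6.49 and 6.49 in WT and 6.51, 6.41, 6.67, 6.5 and 6.72 in Lkb1 KO. Lkb1 KO 2, the highest pool for 17 of the 41 genes, was here the lowest Lkb1 KO pool and below WT 4 and 5 (difference 0.17 ± 0.06 SE, adjusted p = 0.197). A second, dimmer Tk1 probe set gave 0.02 (standard error 0.07). The median of the 4 genes was 0.25.

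Chaf1a and Chaf1b encode the larger subunits of the factor that places histones on new DNA, and Uhrf1 guides maintenance methylation to it. Of the 3 genes only Chaf1b was called. It rose from 7.58, 7.59, 7.63, 7.79 and 7.75 in WT to 7.78, 7.93, 7.81, 7.94 and 7.98 in Lkb1 KO, where only WT 4 at 7.79 exceeded the lowest Lkb1 KO pool at 7.78 (difference 0.22 ± 0.05 SE, adjusted p = 0.0437). Chaf1a was at 6.99, 7.0, 6.99, 6.93 and 6.97 in WT and 6.93, 7.07, 7.11, 6.97 and 6.93 in Lkb1 KO. The WT pools lay within the Lkb1 KO range, and 0 was within the 95% confidence interval, which ran from -0.06 to 0.12 (difference 0.03 ± 0.04 SE, adjusted p = 0.831). Uhrf1 was between 7.02 and 7.15 in WT and 7.11 and 7.45 in Lkb1 KO (difference 0.19 ± 0.06 SE, adjusted p = 0.143; adjusted p = 0.0378 with the replicate block).

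E2f1 activates many of the genes described here, and the cyclin E genes Ccne1 and Ccne2 encode the partners of Cdk2 at the start of S phase. None of the 3 passed the test with all pools unpaired, although all were higher in Lkb1 KO in each same-numbered pair. E2f1 was at 6.05, 6.32, 6.27, 6.23 and 6.23 in WT and 6.22, 6.43, 6.31, 6.46 and 6.54 in Lkb1 KO. Lkb1 KO 1 was within the WT range and below 4 WT pools (difference 0.17 ± 0.07 SE, adjusted p = 0.208; 0.0527 with the replicate block). Ccne2 was at 7.74, 7.86, 7.77, 7.76 and 7.78 in WT and 7.96, 8.08, 7.88, 7.86 and 7.98 in Lkb1 KO. WT 2 at 7.86 was level with Lkb1 KO 4 and the other WT pools were lower (difference 0.17 ± 0.05 SE, adjusted p = 0.0637; 0.0270 with the replicate block). For Ccne1 only Lkb1 KO 4 and WT 2 overlapped (difference 0.19 ± 0.06 SE, adjusted p = 0.11; 0.0386 with the replicate block).

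**Figure D3:**
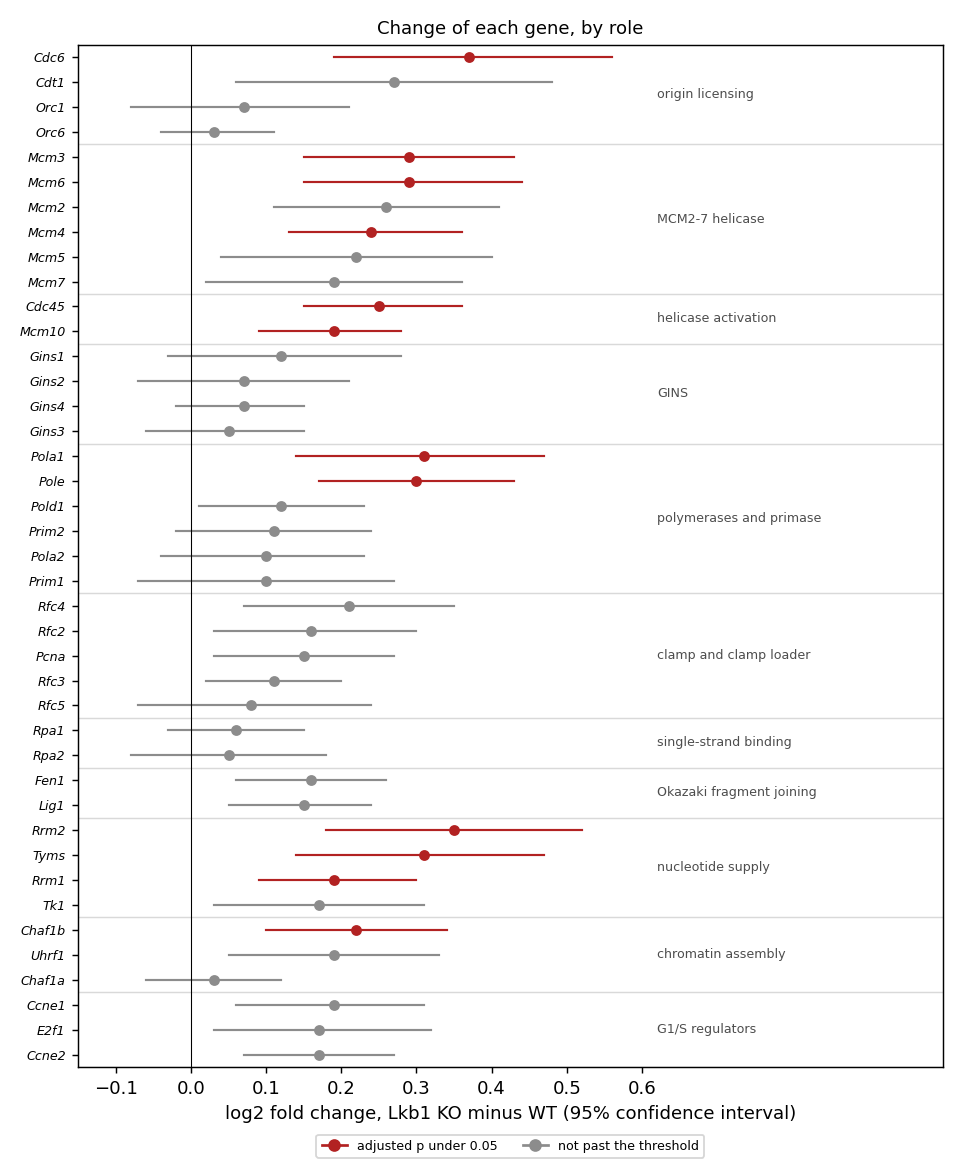
Difference of each gene on the log2 scale (x axis, Lkb1 KO minus WT, with the 95% confidence interval from limma as a bar), with genes grouped by role on the y axis. Red marks the 12 genes with an adjusted p under 0.05; no point lies left of 0, and the intervals of all 4 GINS genes and both replication protein A genes include 0.

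By role, the median log2 fold change was 0.25 for the MCM2-7 ring and for nucleotide supply, 0.22 for Cdc45 and Mcm10, and 0.19 for chromatin assembly. It was 0.17 for licensing and for the S phase regulators and 0.15 for the clamp with its loader and for Okazaki fragment joining. It was 0.11 for polymerases and primase, 0.07 for GINS and 0.05 for replication protein A. The median standard error of a single gene ran from 0.05 to 0.08 across these groups, which is not the error of a group median, and the order is a description. The pool means of the role groups did not overlap between genotypes for licensing, the MCM2-7 ring, Cdc45 with Mcm10, clamp and loader, Okazaki fragment joining, nucleotide supply and the S phase regulators. They overlapped for GINS, replication protein A and chromatin assembly, and for polymerases and primase WT 5 and Lkb1 KO 1 met at 0.09. Of all single genes, 3.09% had every Lkb1 KO pool above every WT pool, and no such share was computed for means of groups. In licensing, Okazaki fragment joining and the S phase regulators the means separated although no single gene did. Groups of 2 to 6 genes from the same pools are not independent of each other, and no test was made between them.

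**Figure D4:**
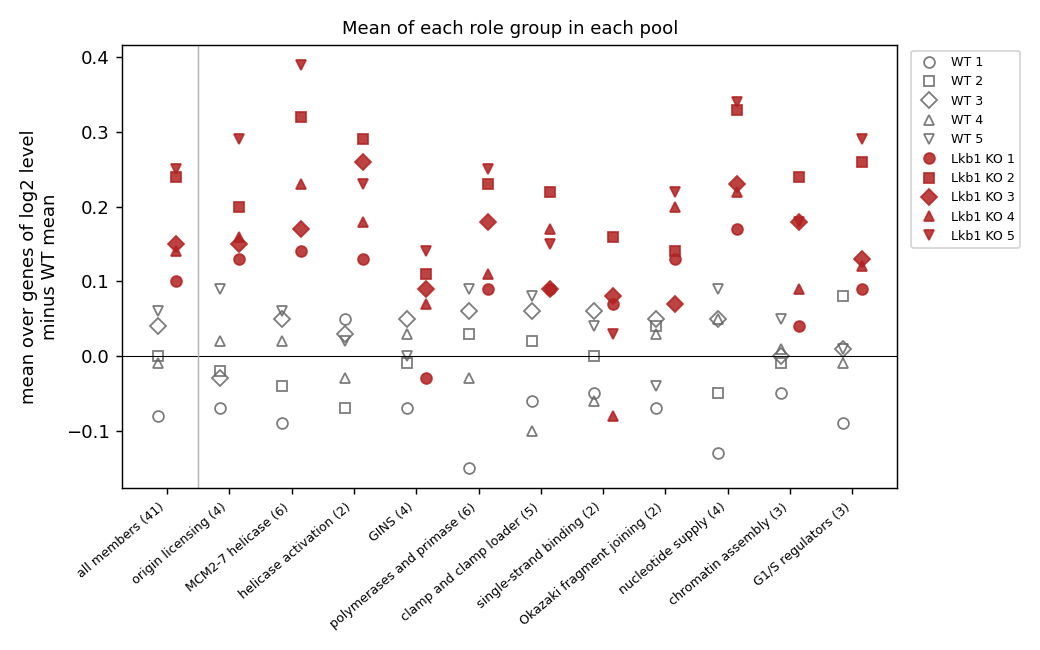
Mean over the genes of each role group of the log2 level minus the WT mean (y axis), for each pool (open grey marks WT, filled red marks Lkb1 KO, the shape giving the pool number) and each group (x axis, with the number of genes). For all 41 genes the WT pools lie between -0.08 and 0.06 and the Lkb1 KO pools between 0.10 and 0.25.

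Of 75 further genes of replication and its control 73 were measured, with a median log2 fold change of 0.06. Among them limma called 13 higher and none lower, against 2.49% and 1.38% of all genes. With the Y-linked covariate 4 were called higher (1.43% of all genes). Without Lkb1 KO 2 and 5 there were 5 (1.44%), and the median was 0.04 in both fits. Of 17 genes of G1/S control, 7 were higher. Cdk2, the kinase that cyclin E activates, was at 8.0, 8.26, 8.30, 8.22 and 8.40 in WT and 8.68, 8.85, 8.68, 8.82 and 9.0 in Lkb1 KO, all Lkb1 KO pools being above all WT pools. The change was larger than that of any of the 41 genes (difference 0.57 ± 0.08 SE, adjusted p = 0.00105). Ccna2, the S phase and G2 cyclin, had 0.40 (adjusted p = 0.00153), Fbxo5, an inhibitor of the anaphase-promoting complex, 0.35 (0.0103) and E2f5, a repressor of the E2F family, 0.25 (0.0159). E2f8, Rbl1 and E2f3 were called too. The retinoblastoma gene Rb1, which restrains E2F factors, had a log2 fold change of -0.20 and did not pass the test with all pools (adjusted p = 0.0621). With the replicate block Rb1 was called lower and 6 of the 17 higher, E2f3 no longer among them. With the Y-linked covariate 2 were higher, Cdk2 and Ccna2, and without Lkb1 KO 2 and 5 there were 3, with Fbxo5 added.

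Of 21 further genes of the fork and its polymerases, 3 were higher, against 2.49% of all genes. They were Tipin of the fork protection complex (0.29), Pole2, the second subunit of polymerase epsilon (0.24), and Pold2 of polymerase delta (0.21). None of the 21 was called with the Y-linked covariate or without Lkb1 KO 2 and 5. Of 9 genes of chromatin replication, 3 were higher, namely the histone acetyltransferase gene Hat1 (0.30, adjusted p = 0.00186), the histone chaperone gene Asf1b (0.35, adjusted p = 0.00242) and the helicase gene Hells (0.19). Hat1 and Asf1b were called in both of those fits and Hells in neither. None of 15 further origin and firing genes and none of 11 further genes of nucleotide supply was called by limma. At an unadjusted p under 0.05, 5 and 0 were higher and 0 and 1 lower. With the replicate block Ticrr, which acts in origin firing, was called higher. The origin complex genes Orc2, Orc3, Orc4 and Orc5 had log2 fold changes of -0.04, -0.01, 0.02 and 0.00. The nucleotide genes outside the 41, among them Dut and Dck (-0.01 and -0.04), had a median of 0.02, beside 0.25 for Rrm1, Rrm2, Tyms and Tk1. The lists were chosen with earlier results of these data known, and the difference between them was not tested.

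Genes of G2 phase and mitosis, the next stage of the cell cycle, were also higher in Lkb1 KO. Of 19 measured, 18 were higher and none lower, against 2.49% and 1.38% of all genes. The median log2 fold change was 0.36, beside 0.17 for the 41 replication genes. The spindle motor gene Kif11 had 0.47 (adjusted p = 5.70e-04), the kinetochore motor gene Cenpe 0.38 (9.18e-04), the proliferation marker Mki67 0.39 (0.00116) and the spindle gene Tpx2 0.36 (0.00139). The mitotic genes ranged from 0.24 to 0.47 and the replication genes from 0.03 to 0.37. Without Lkb1 KO 2 and 5 the mitotic list had 7 calls and a median of 0.27, and the 41 genes 1 call and 0.12. With the Y-linked covariate these were 7 calls and 0.25, and 1 call and 0.11. Of all genes, 1.44% were called higher without Lkb1 KO 2 and 5 and 1.43% with the covariate. The difference between the lists was not tested, since genes are not replicates and the lists share all pools.

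**Figure D5:**
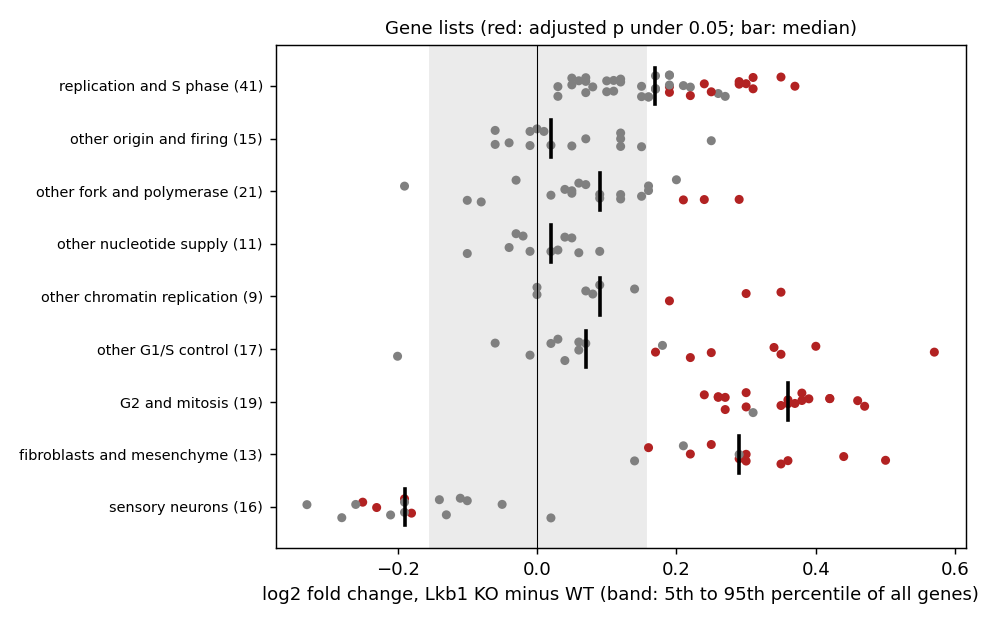
Difference on the log2 scale (x axis, positive where Lkb1 KO was above WT) of each gene of the 41 and of 8 other lists (y axis, with the number measured); red marks an adjusted p under 0.05 from limma, black bars are medians, and the grey band spans the 5th to 95th percentile of all genes. The median is 0.17 for the 41 genes and 0.36 for G2 and mitosis, and no gene of either list lies left of 0.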

How the data were processed

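One-colour Affymetrix arrays measured the RNA of DRG pools, 5 per genotype. The authors deposited log2 values of 35556 probe sets, made with RMA and Partek 6.6 according to the submitters' processing notes. The methods name MATLAB with a false discovery rate of 0.01. Array medians differed by at most 0.069, and the number of arrays limits the precision. No detection call was used, so the changes of dim genes can be compressed.

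In the platform annotation 21789 probe sets had 1 gene, 1621 had several, and 12146 had none listed. Of those with 1 gene, 21698 matched RefSeq (GRCm38.p6) by identifier. Taking the brightest probe set per gene left 19938 genes. The genotypes were tested by limma 3.58.1 (R 4.3.3, moderated and two-sided). The p-values were adjusted by Benjamini-Hochberg over all genes, and every adjusted p in the text comes from it unless another test is named. Tables were handled in Python 3.11.15 with pandas 2.3.3. The fit was tested on simulated data.

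Alternatives were aligned array medians, cyclic loess, an analysis of variance per gene, array weights, a robust prior with an intensity trend, removal of the dimmest 30% of genes, averaging of a gene's probe sets, every probe set on its own, the replicate block, a Y-linked covariate, a threshold of 0.01 and each pool left out in turn. Leaving out Lkb1 KO 2 and 5 together, and the block with the covariate, were chosen after seeing the data.

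Genes given in full were, per role group, those with the smallest and the largest unadjusted p, with Mcm2 to Mcm7, Pcna, Rrm2 and E2f1; of the other replication and mitotic lists up to 4 with the smallest p were named. Cdk2's comparison with the 41 genes, the other called genes, Rb1, Ticrr and the Orc, Dut and Dck values were chosen after their values were seen. The 41 genes and all lists were chosen with earlier results of these data known.

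WT and Lkb1 KO pools share replicate numbers. Over all genes, the deviations of same-numbered pools from their group means had correlations of 0.21 to 0.48 (-0.48 to 0.31 for other pairs), and 8 of 10 pools correlated best with their own number. The measurements thus went with the numbers for most pools, but Lkb1 KO 4 correlated better with WT 5 (0.31) than with WT 4 (0.21). No label says what a number stands for, so the pairing is not established. The main test was unpaired, and the fit with the replicate block is given where it changed a call. Arrays of the same genotype differed from each other with an SD of 0.120 to 0.198 (log2), so no array was a copy of another.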

Additional observations from a re-analysis of the deposited data

Results flagged for a closer look

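Among 106 groups of 5 pools examined (each gene and each role mean in each genotype), 4 held a pool far from the others, where chance marks about 1 group in 20. Orc1 was at 5.33 in Lkb1 KO 5 and at 4.95 to 4.98 in the other Lkb1 KO pools. Mcm5 was at 8.60 in Lkb1 KO 5 and at 8.18 to 8.29 in the others. Pole was at 7.88 in WT 1 and at 8.05 to 8.11 in the other WT pools. Rrm2 was at 7.0 in WT 1 and at 7.22 to 7.28 in the others.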

How the results depend on the processing

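With 12 of the 41 genes called higher, the count became 1 with the analysis of variance per gene, the Y-linked covariate, the covariate with the replicate block, or without Lkb1 KO 2 and 5. It became 19 with the replicate block, in which all 12 remained, and 0 at the threshold of 0.01. It ran from 2 to 13 when 1 pool was left out, where the fits without WT 2 and without Lkb1 KO 2 gave the lowest count. Under the other alternatives it was 11 to 16, and none of the 41 was called lower under any. The median of 0.17 became 0.11 with the Y-linked covariate and ran from 0.15 to 0.19 when 1 pool was left out. The licensing median of 0.17 became 0.27 without the dimmest genes, which drops Orc1, 0.06 with the covariate, 0.10 with covariate and block, 0.08 without Lkb1 KO 2 and 5, and 0.11 to 0.20 when 1 pool was left out. With the covariate and without Lkb1 KO 2 and 5, the median went from 0.19 to 0.11 and 0.11 for chromatin assembly, from 0.17 to 0.10 and 0.11 for the S phase regulators, from 0.07 to 0.04 and 0.04 for GINS, and from 0.05 to 0.03 and 0.02 for replication protein A, which ran from 0.03 to 0.09 when 1 pool was left out. Of 899 values of single genes under 22 alternatives, 754 kept direction and side of the threshold, 114 lost a call, 22 gained one and 9 turned negative. The 9 were Orc1 (0.07 with all pools, 0.09 without Lkb1 KO 2), at -0.01 with the covariate, with covariate and block, without Lkb1 KO 2 and 5, and without Lkb1 KO 5; Rfc5, at -0.02, -0.03 and -0.01 in the first 3 of these; Gins1, at -0.01 with covariate and block; and Gins2, at -0.01 with the covariate. None of these was called. Apart from Orc1 without the dimmest genes, the causes were not tested.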
